A study of Mus musculus with 3 samples.

Results

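The 9 genes followed here are Trp53, which encodes the transcription factor p53, and 8 genes tied to it by name or by regulation: Mdm2, Trp53i11, Trp53cor1, Cdkn1a, Ccng1, Phlda3, Bax and Trp53inp1. They were read in myeloid cells of the mouse hippocampus, and each of the 9 symbols matched 1 of the 31053 genes listed in the count matrices. Trp53i11 and Trp53cor1 were chosen by their measured values: they had been among the genes with the largest falls in microglia with markers of the disease-associated state, and the other 7 were added as p53 and its regulators and targets. For that reason the values of all 9 genes in lipid-marker and chemokine-marker microglia are given as a description with no test, and only the other comparisons are tested.

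The cells came from 12 mice, 6 male and 6 female, of the genotype Cx3cr1CreERT2/+, Rosa26tdTomato/+ and NestinTK-eGFP/+. All of them had received tamoxifen at 100 mg/kg on 4 days, so every cell shares these alleles and this treatment, and there was no untreated group. In such mice the Cx3cr1 promoter drives an inducible Cre, which turns on tdTomato in microglia and other cells that use Cx3cr1. Both hippocampi were taken after perfusion, myelin was removed on magnetic columns, and viable sorted cells were run on the 10x Genomics droplet platform in 3 runs. The labels do not say which animals went into which run, so the run is the replicate (n = 3) and each run pools an unknown set of animals. The run is a block in the main tests. P-values there measure how the difference between the compared populations of a run varied over the runs, with variance estimates that draw on all genes. They do not measure the spread of levels between runs.

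The runs held 7255, 6895 and 6226 cell barcodes, of which 6993, 6720 and 6078 passed the filters. A cell was kept with 1000 or more unique molecular identifiers (UMIs, each standing for 1 captured transcript) and 500 or more genes, if mitochondrial genes took no more than 10% of its UMIs. Levels are given as CPM, the gene's UMIs per 1000000 UMIs summed over the cells of a population in a run. The median depth of these cells was 4425, 3438 and 3696 UMIs, and pairs of runs shared 7 or 8 barcodes. All 12 microglia markers, such as P2ry12 and Tmem119, were detected in every microglial population. Microglia were sorted into states by counting marker genes in each cell, and the thresholds were set after the distributions of the markers had been seen. Microglia of no state numbered 6402, 6276 and 5172 in runs 1 to 3, and they serve as the common control of all the state comparisons. Lipid-marker microglia (at least 2 of Axl, Csf1, Cst7, Fabp5, Gpnmb, Igf1, Itgax, Lgals3, Lpl and Spp1) numbered 125, 138 and 80. Chemokine-marker microglia (at least 2 of Ccl2, Ccl3, Ccl4, Ccl7, Il1b and Tnf) numbered 30, 44 and 83. Interferon-marker microglia (at least 3 of 14 genes) numbered 109, 83 and 79, and cycling microglia (at least 3 of 19 genes) 45, 20 and 21. These states are ranges of marker counts rather than cell types: 57, 74 and 53 of the cells that met the lipid rule had the minimum number of markers, and 925, 790 and 758 further cells were 1 marker short of it. For the cycling rule 14, 8 and 6 cells were at the minimum, and 107, 70 and 70 were 1 marker short.

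p53 is held at a low level by Mdm2, a ubiquitin ligase that marks it for degradation and is itself a p53 target. When DNA damage, oncogene activity or other stress frees p53 from Mdm2, it binds DNA as a tetramer and turns on genes that stop the cell cycle, repair DNA or lead to apoptosis. The p53 level is set mainly on the protein, so the Trp53 transcript need not follow p53 activity, and targets differ in how far they also answer to other factors. Microglia are long-lived cells that renew themselves by slow division.

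Positions are given on the mouse genome build GRCm38 with GENCODE M21. Cdkn1a and Trp53cor1 lie close together. Cdkn1a, which encodes the cyclin-dependent kinase inhibitor p21, lies at chr17:29090976-29100727 on the plus strand. Trp53cor1, the long noncoding RNA also called lincRNA-p21, lies at chr17:29057430-29079179 on the minus strand, so that 11797 bases separate the 2 genes. Trp53i11, a gene named for its induction by p53, lies at chr2:93187548-93201759 on the plus strand. Phlda3, whose product holds back the kinase Akt, lies at chr1:135766119-135769136 on the plus strand. Bax, which encodes a protein that opens the outer mitochondrial membrane in apoptosis, lies at chr7:45461697-45466898 on the minus strand. Both Trp53cor1 and Cdkn1a overlap an annotated antisense gene, and whether the counting used strand is not given in the sources used here.

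RefSeq windows of 300 bases (250 before to 50 after a transcript start, build GRCm38.p6) matched 7 of the 9 genes, and Trp53cor1 and Trp53inp1 had none. Each was searched for the p53 consensus decamer, the unit that p53 binds in pairs, which reads the same on both strands. It was present in 8.36% of all 32851 windows, and 2 decamers with at most 13 bases between them were present in 0.0731%. The upstream window of Cdkn1a, chr17:29090729-29091028 on the plus strand, held such a pair, with the first decamer at position -73 from the start, and its other window held none. Bax (chr7:45466849-45467148, minus strand) held 1 decamer at -201, and Trp53, Ccng1 and Mdm2 held 1 each. Trp53i11 (chr2:93187298-93187597, plus strand) and Phlda3 (chr1:135765835-135766134, plus strand) held none in these windows. A match is only a run of letters, and p53 sites further away or of other spelling are not covered. The windows of the 4 genes whose levels separated most clearly below are shown on the strand of the gene, 5′ to 3′, with the decamers in capitals.
Cdkn1a: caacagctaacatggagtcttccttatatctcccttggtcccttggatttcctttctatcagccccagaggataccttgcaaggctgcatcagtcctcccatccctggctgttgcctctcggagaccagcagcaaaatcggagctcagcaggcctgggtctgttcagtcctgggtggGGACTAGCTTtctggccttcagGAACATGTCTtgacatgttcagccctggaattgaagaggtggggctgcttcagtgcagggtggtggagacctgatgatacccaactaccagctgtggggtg
Bax: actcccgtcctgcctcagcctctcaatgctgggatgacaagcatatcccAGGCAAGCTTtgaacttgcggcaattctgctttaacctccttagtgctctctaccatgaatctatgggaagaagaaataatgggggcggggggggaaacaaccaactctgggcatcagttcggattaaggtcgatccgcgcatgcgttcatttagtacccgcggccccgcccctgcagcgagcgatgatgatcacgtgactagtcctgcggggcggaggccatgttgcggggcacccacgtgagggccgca
Trp53i11: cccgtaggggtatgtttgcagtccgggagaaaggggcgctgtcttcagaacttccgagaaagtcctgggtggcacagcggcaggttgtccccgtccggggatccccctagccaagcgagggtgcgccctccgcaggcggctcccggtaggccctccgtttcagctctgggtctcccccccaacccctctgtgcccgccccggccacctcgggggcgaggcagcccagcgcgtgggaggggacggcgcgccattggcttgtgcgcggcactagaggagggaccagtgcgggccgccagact
Phlda3: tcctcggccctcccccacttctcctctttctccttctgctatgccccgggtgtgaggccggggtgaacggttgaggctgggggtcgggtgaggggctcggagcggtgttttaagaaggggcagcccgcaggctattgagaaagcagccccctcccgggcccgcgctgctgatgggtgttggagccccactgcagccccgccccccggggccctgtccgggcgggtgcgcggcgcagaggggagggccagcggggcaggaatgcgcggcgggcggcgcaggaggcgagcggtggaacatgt

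**Figure D1:**
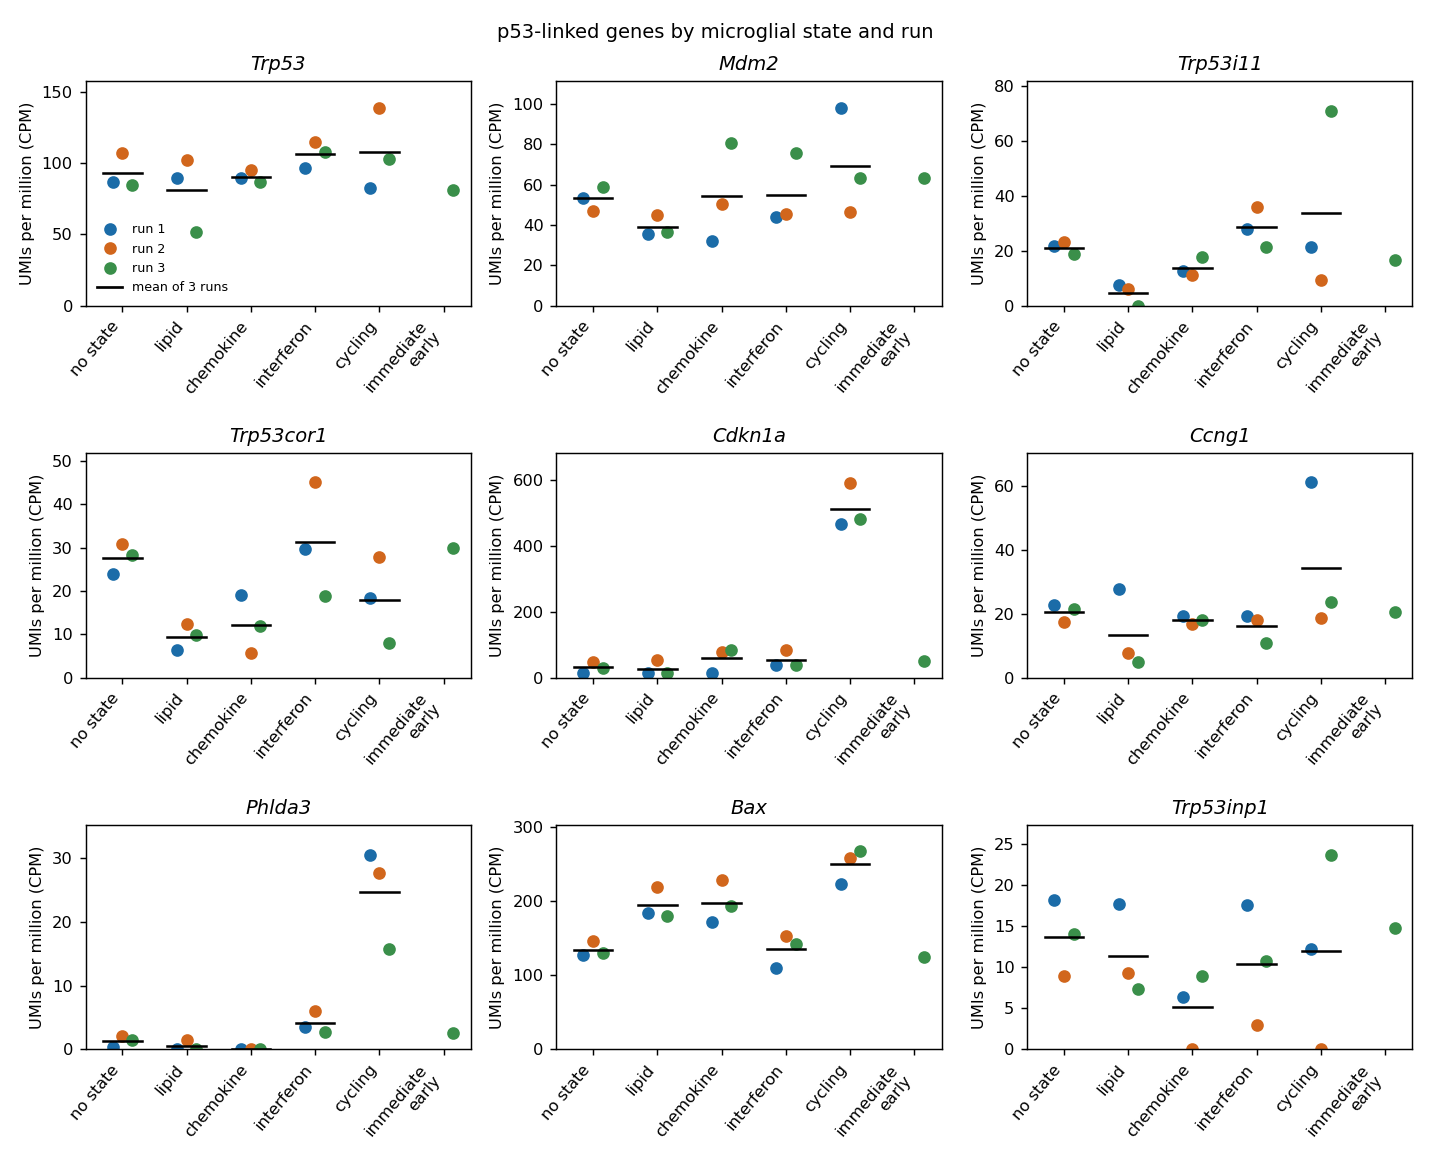
Level of each of the 9 genes (vertical axes, CPM of UMIs summed per run and population) in microglia of no state, in the lipid-marker, chemokine-marker and interferon-marker states, in cycling microglia and in immediate early-marker microglia. Points are runs with at least 20 cells and the line is the mean of 3 runs; Cdkn1a stands at 467.7 to 591.8 CPM in cycling microglia against 14.98 to 48.6 in microglia of no state, while Trp53i11 stands at 0 to 7.6 CPM in lipid-marker microglia against 18.8 to 23.2.

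The low levels of Trp53i11 and Trp53cor1 in lipid-marker microglia were not shared by the other 7 genes as a group. Trp53i11 stood at 21.7, 23.2 and 18.8 CPM in microglia of no state of runs 1 to 3 (647, 522 and 373 UMIs). In lipid-marker microglia it stood at 7.6, 6.2 and 0 CPM (6, 4 and 0 UMIs). All 3 runs were lower and the groups did not overlap, with a fitted difference of -1.97 ± 0.38 (log2, standard error). Trp53cor1 stood at 23.8, 30.9 and 28.4 CPM in microglia of no state and at 6.3, 12.3 and 9.8 CPM (5, 8 and 4 UMIs) in lipid-marker microglia, again without overlap, with a difference of -1.54 ± 0.31. These 2 differences are the ones that led to the choice of the genes.

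Of the remaining genes, Mdm2 was the only one that also lay lower in every run without overlap. It stood at 53.5, 46.9 and 59.0 CPM in microglia of no state and at 35.3, 44.7 and 36.7 CPM in lipid-marker microglia, a smaller difference of -0.40 ± 0.17. Of all genes tested, 15.6% were lower without overlap in this comparison. Bax went the other way. It stood at 127.3, 146.6 and 130.3 CPM in microglia of no state and at 183.9, 218.9 and 180.9 CPM in lipid-marker microglia, a difference of 0.57 ± 0.09, and all 3 runs were higher without overlap, as were 11.7% of all genes.

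Cdkn1a, p53 itself and the rest showed no such separation in lipid-marker microglia. Cdkn1a stood at 14.98, 48.6 and 28.2 CPM in microglia of no state, where run 2 was highest, and at 15.1, 54.0 and 12.2 CPM in lipid-marker microglia, a difference of -0.08 ± 0.22. Runs 1 and 2 were close to their own microglia of no state, and run 3 was lower. Trp53 differed by -0.11 ± 0.12, Ccng1 (cyclin G1) by -0.38 ± 0.28 and Trp53inp1, whose stress-induced product takes part in p53 signalling and autophagy, by -0.14 ± 0.32. Ccng1 was uneven over the runs, at 4.9 to 27.7 CPM in lipid-marker microglia against 17.3 to 22.7 CPM in microglia of no state. Over the settings tried, its difference lay between -1.49 and -0.09. These values do not settle whether Ccng1 shares the low levels. Phlda3 had at most 1.5 CPM in any run of lipid-marker microglia, too few transcripts to place.

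**Figure D2:**
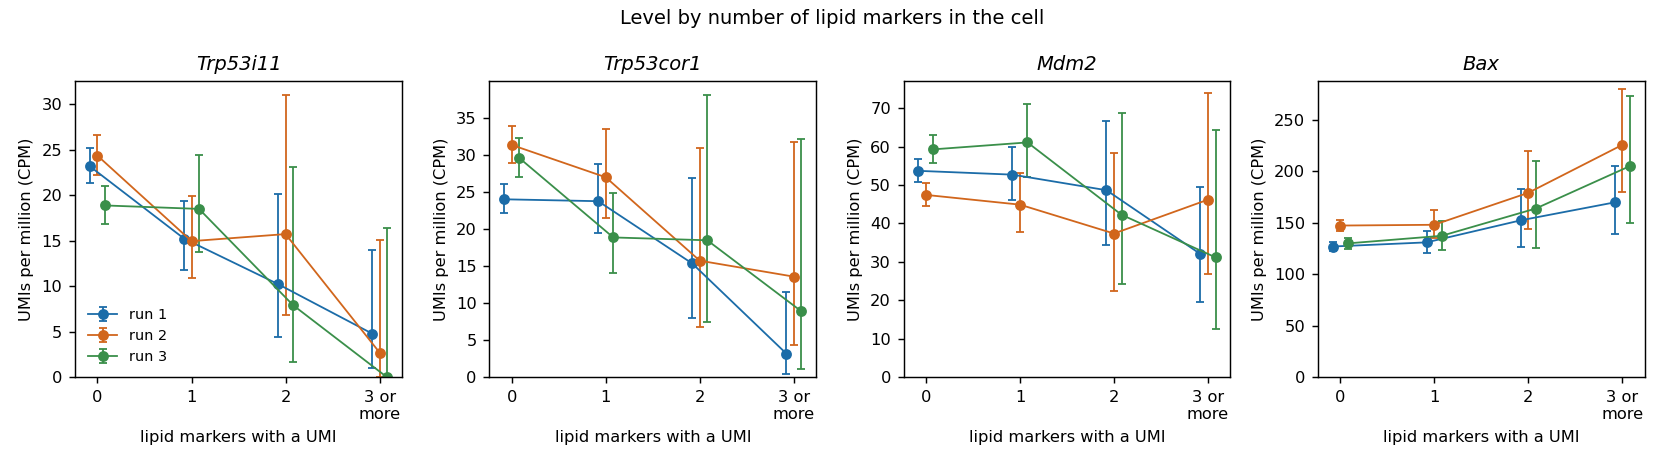
Level (CPM, vertical axes) of Trp53i11, Trp53cor1, Mdm2 and Bax in microglia with 0, 1, 2 and 3 or more of the 10 lipid markers detected (horizontal axes), one line per run, with exact 95% Poisson intervals that cover counting error only. Trp53i11 stands at 18.9 to 24.4 CPM with no marker and at 0 to 4.8 CPM with 3 or more, and Bax stands higher in each run with 3 or more markers than with none.

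The levels were also read by the number of lipid markers in a cell. Trp53i11 stood at 23.2, 24.4 and 18.9 CPM in cells with no lipid marker. It stood at 15.2, 14.96 and 18.5 CPM with 1 marker, at 10.2, 15.7 and 7.9 CPM with 2, and at 4.8, 2.7 and 0 CPM with 3 or more (83, 67 and 37 cells). In runs 1 and 3 the level was lower at each step, and in run 2 the steps with 1 and with 2 markers lay close together. Trp53cor1 stood at 24.0, 31.4 and 29.6 CPM with no marker and at 23.8, 27.0 and 18.9 CPM with 1. It stood at 15.4, 15.7 and 18.5 CPM with 2 and at 3.2, 13.6 and 8.9 CPM with 3 or more, so that the level with 1 marker was close to that with none in run 1 and lower in run 3. Bax stood at 126.9, 147.3 and 129.9 CPM with no marker and at 169.8, 225.5 and 204.9 CPM with 3 or more. A cell with more transcripts has more chances to show a marker, and the median depth of lipid-marker microglia (5660, 4164 and 4847 UMIs) was above that of microglia of no state (4377.5, 3411 and 3638). When each cell was thinned to 2000 UMIs, 0.8, 2.21 and 0% of lipid-marker microglia in runs 1 to 3 had a Trp53i11 UMI. In microglia of no state 4.15, 4.37 and 3.86% had one. Over all runs the shares were 1.17% and 4.14%. They belong to the comparison in which the gene was chosen and are a description. The unthinned shares over all runs were 2.92% and 7.75%. The summed level of the 12 microglia markers was also lower, at 25226 to 34128 CPM in lipid-marker microglia against 36360 to 47255. The median mitochondrial share of a cell was higher in every run, at 3.63, 2.86 and 3.81% against 2.57, 2.08 and 2.56%. The part of either in these differences was not tested.

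Clusters formed without the 9 genes gave a further view of the same pair. One microglial subcluster held 4272 cells and was led by Apoe, Fxyd5, Lyz2 and Emp3. Levels were read only in the microglia of no state of each subcluster. In this one Trp53i11 stood at 12.5, 15.5 and 10.5 CPM. The 2 other large subclusters had 25.1, 27.5 and 20.3 CPM and 25.4, 25.5 and 22.6 CPM. Trp53cor1 stood at 20.7, 22.8 and 20.05 CPM in the Apoe-led subcluster against 25.7, 35.0 and 32.6 CPM and 25.5, 33.3 and 28.8 CPM in the other 2. Of these 3 subclusters the Apoe-led one had the lowest level of both genes in every run. Apoe is itself on the list of lipid-state markers, although it was not counted because 52.8% of cells had it. This view is therefore not separate from the lipid-marker comparison. The rest of the 9 genes are not given by subcluster, so whether they share this order is not shown. The 2 transcripts were not closely tied within single cells: after thinning, 4.65, 6.49 and 4.51% of Trp53cor1-positive microglia of no state had a Trp53i11 UMI, against 4.13, 4.23 and 3.82% of those without Trp53cor1.

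The wider p53 list, 60 regulators and targets written from general knowledge with 58 of them in the files, moved in both directions in lipid-marker microglia. Of 47 genes tested 5 rose and 4 fell (edgeR quasi-likelihood test, Benjamini-Hochberg adjusted over all genes), or 19.1%, against 22.5% of all genes tested, and the median difference was -0.15 against -0.05 for all genes. Siva1, a pro-apoptotic target, stood at 61.7, 66.3 and 31.8 CPM against 21.6, 27.3 and 20.1 CPM in microglia of no state, a rise of 1.30 ± 0.18 (adjusted p = 5.4e-11). Ephx1, an epoxide hydrolase, rose by 1.09 ± 0.27 (adjusted p = 0.000451), and Rps27l, a ribosomal protein-like target, by 0.61 ± 0.09 (adjusted p = 6.3e-10). Ddit4, an inhibitor of mTOR signalling, stood at 86.9, 10.8 and 9.8 CPM against 258.6, 54.7 and 73.5 CPM and fell by 1.74 on the log2 scale (standard error 0.15, adjusted p = 7.3e-30). Sesn1, a sestrin, fell by 0.76 (0.14, adjusted p = 6.9e-07), and Btg2, an antiproliferative gene, by 0.65 (0.08, adjusted p = 4.7e-15). With the run left out of the model, the falls of Ddit4, Btg2 and Sesn1 lost the call (adjusted p = 0.215, 0.621 and 0.112). The fall of the acetyltransferase Ep300 by 0.31 (adjusted p = 0.0442) was lost without any 1 of the 3 runs, where the adjusted p lay between 0.0735 and 0.289.

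In chemokine-marker microglia the genes again did not move as a block. Trp53cor1 stood at 19.1, 5.6 and 11.9 CPM (3, 1 and 4 UMIs) and Trp53i11 at 12.7, 11.2 and 17.9 CPM (2, 2 and 6 UMIs), all below their levels in microglia of no state. The differences were -1.22 ± 0.50 for Trp53cor1 and -0.48 ± 0.49 for Trp53i11, and 13.7% of all genes were lower without overlap. Bax stood at 172.0, 228.9 and 194.1 CPM, a difference of 0.57 ± 0.17 of the same size as in lipid-marker microglia, and 7.1% of all genes were higher without overlap. Cdkn1a stood at 12.7, 78.2 and 83.6 CPM, higher in runs 2 and 3 and lower in run 1, with a difference of 1.05 ± 0.29. Mdm2 (0.13 ± 0.27), Trp53 (-0.02 ± 0.22) and Ccng1 (-0.19 ± 0.46) lay close to their levels in microglia of no state, and Trp53inp1 (1, 0 and 3 UMIs) was too sparse to place. Phlda3 had 0 UMIs in chemokine-marker microglia of all 3 runs.

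Of 45 wider-list genes tested in chemokine-marker microglia, 1 rose and 2 fell, or 6.67% against 3.58% of all genes, with a median of -0.04 against -0.08. Plk3, a polo-like kinase of the stress response, stood at 44.6, 72.6 and 29.9 CPM against 11.3, 30.6 and 21.2 CPM and rose by 1.12 ± 0.35 (edgeR adjusted p = 0.0408). That call was lost without run 1 (adjusted p = 0.423) and without run 2 (0.508). Ddit4 fell by 1.37 (standard error 0.26, adjusted p = 1.6e-05) and Sesn1 by 1.01 (0.26, adjusted p = 0.005), the latter lost without run 1 (0.176) or run 2 (0.129). With the run left out of the model the Ddit4 call was lost too (adjusted p = 0.566). Where chemokine cells were taken as a cluster in place of the marker rule, the cluster held 267 of the 343 lipid-marker microglia. It also held 478 microglia of no state, so that it is not a clean chemokine state. The 10 leading genes of the whole cluster were Ccl4, Gzma, Nkg7, Xcl1, Ccl3, Spp1, Ccl2, S100a9, Ccl5 and Gadd45b, genes of T and NK cells among them. Cells called T or NK by their markers were left out of the fit. In the cells that were fitted Trp53i11 differed by -1.90, Trp53cor1 by -1.23, Bax by 0.61 and Cdkn1a by 0.55.

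In interferon-marker microglia neither Trp53i11 nor Trp53cor1 was low. Trp53i11 stood at 28.0, 36.1 and 21.5 CPM against 21.7, 23.2 and 18.8 CPM, a difference of 0.41 ± 0.27 (edgeR adjusted p = 0.745). Trp53cor1 stood at 29.8, 45.2 and 18.8 CPM, with run 3 below and runs 1 and 2 above microglia of no state, a difference of 0.18 ± 0.25 (adjusted p = 0.931). Of the 9 genes 1 passed the test, Cdkn1a, where 1.84% of all genes did. It stood at 38.5, 84.3 and 37.7 CPM against 14.98, 48.6 and 28.2 CPM, higher in each run than in the same run's microglia of no state although the groups overlap across runs, and rose by 0.86 ± 0.21 (adjusted p = 0.00279). Phlda3, at 3.5, 6.0 and 2.7 CPM against 0.4, 2.1 and 1.5 CPM, was higher without overlap. Its counts in microglia of no state alone did not meet the low-count filter for testing, so it entered through its counts in interferon-marker microglia. It is therefore not set against the share of all genes. None of the rest of the 9 genes was higher or lower without overlap, where 4.89% of all genes were higher and 7.32% lower. Phlda3 did not pass the test (1.72 ± 0.99, adjusted p = 0.683). Bax, Mdm2, Trp53, Ccng1 and Trp53inp1 did not pass it either.

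The Cdkn1a call in interferon-marker microglia was not firm. It was lost without run 1 (adjusted p = 0.415), without run 2 (0.0909), with 1 more marker required (0.307), without cells that carried Xist together with Y-linked UMIs (0.0632), with DESeq2's Wald test (0.0726) and with a cluster in place of the marker rule (0.870). The higher level lay in cells with 3 to 5 interferon markers, at 49.7, 93.5 and 40.4 CPM, whereas cells with 6 or more (36, 17 and 20 cells) had 0, 30.2 and 32.6 CPM. Of 45 wider-list genes 1 changed, or 2.22%: Ddit4 fell by 0.43 (adjusted p = 0.0378), a call lost without any 1 of the 3 runs, where the adjusted p lay between 0.0723 and 0.685.

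Cycling microglia showed the widest differences for several of the 9 genes. Cdkn1a stood at 467.7, 591.8 and 481.2 CPM (153, 64 and 61 UMIs) against 14.98, 48.6 and 28.2 CPM, and all 3 runs were far above microglia of no state. It rose by 4.09 ± 0.16 (edgeR adjusted p = 4.5e-142). Phlda3 stood at 30.6, 27.7 and 15.8 CPM (10, 3 and 2 UMIs) against 0.4, 2.1 and 1.5 CPM and rose by 4.46 ± 0.70 (adjusted p = 7e-09), a call lost without run 1 (3.34, adjusted p = 0.108). Bax stood at 223.1, 258.9 and 268.2 CPM against 127.3, 146.6 and 130.3 CPM and rose by 0.69 ± 0.15 (adjusted p = 8.7e-05). Cdkn1a and Bax thus rose and none of the 9 genes fell, where 17.3% of all genes passed the test (8.82% rose and 8.53% fell). Both were higher without overlap, as were 15.6% of all genes. Phlda3 was higher without overlap too, but it is not set against these shares. Its counts in microglia of no state alone did not meet the low-count filter. It could be tested only because it was high in cycling microglia.

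The other 6 genes did not pass the test in cycling microglia. Ccng1 stood at 61.1, 18.5 and 23.7 CPM (20, 2 and 3 UMIs) against 22.7, 17.3 and 21.4 CPM, so that its difference of 0.86 ± 0.35 (adjusted p = 0.0681) came from run 1, and without run 1 it was -0.10. Mdm2 stood at 97.8, 46.2 and 63.1 CPM (0.37 ± 0.25, adjusted p = 0.350), again with run 1 highest, and the difference was -0.17 without run 1. Trp53 stood at 82.5, 138.7 and 102.5 CPM against 87.0, 106.9 and 84.5 CPM, a difference of -0.05 ± 0.21. Trp53cor1, the neighbour of Cdkn1a, stood at 18.3, 27.7 and 7.9 CPM (6, 3 and 1 UMIs), below microglia of no state in each run, and differed by -0.75 ± 0.45 (adjusted p = 0.292). Trp53i11 was at 21.4, 9.2 and 71.0 CPM (7, 1 and 9 UMIs), low in run 2 and high in run 3 (0.33, adjusted p = 0.648). Trp53inp1 had 12.2, 0 and 23.7 CPM.

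**Figure D3:**
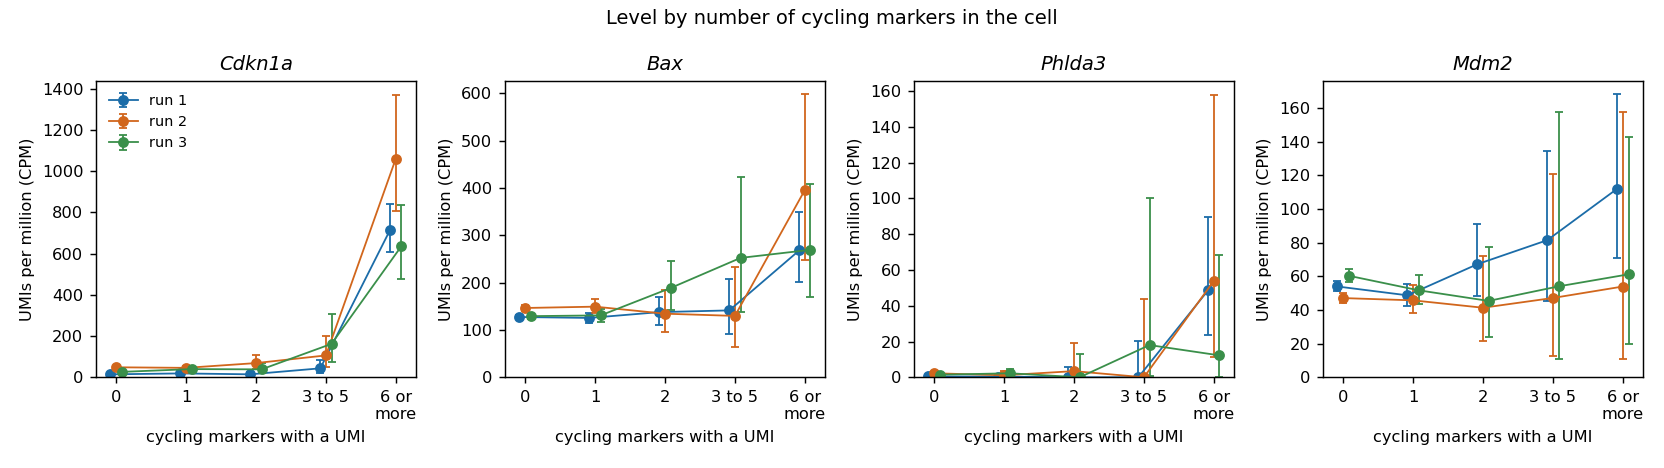
Level (CPM, vertical axes) of Cdkn1a, Bax, Phlda3 and Mdm2 in microglia with 0, 1, 2, 3 to 5 and 6 or more cycling markers detected (horizontal axes), one line per run, with exact 95% Poisson intervals that cover counting error only. Cdkn1a stands at 636.7 to 1061.6 CPM in cells with 6 or more markers against 14.2 to 48.5 CPM in cells with none.

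The Cdkn1a level went with the number of cycling markers in a cell. It stood at 14.2, 48.5 and 26.3 CPM with no marker, at 14.4, 68.9 and 38.4 CPM with 2, and at 43.5, 106.1 and 162.2 CPM with 3 to 5 (24, 16 and 9 cells). In cells with 6 or more (26, 8 and 13 cells) it stood at 716.8, 1061.6 and 636.7 CPM, the highest step in every run. Cycling microglia were also split by their summed UMIs of 13 G2/M markers and of 6 S phase markers. Cells with more G2/M than S phase UMIs had 714, 1014 and 581 CPM of Cdkn1a. This was above the 92.5, 238 and 400 CPM of cells with at least as many S phase UMIs. Bax followed the same order, at 273.5, 344.9 and 493.1 CPM against 146.5, 186.9 and 85.7 CPM. These splits rest on 26, 8 and 9 cells against 19, 12 and 12, and no test was made on them.

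Cdkn1a was spread over many cycling cells. Of the 86 cells 47 had at least 1 UMI, 18 had 5 or more, and the highest had 19. After thinning to 2000 UMIs, 36.5% of cycling microglia had a Cdkn1a UMI (exact binomial 95% interval 26.3 to 47.6%) against 3.57% of microglia of no state (3.30 to 3.86%), with unthinned shares of 54.7% and 5.61%. In the other populations, border-associated macrophages and MHC class II-positive cells included, the thinned share lay between 4.32% and 14.6%. Median depth was 6940, 4950.5 and 5895 UMIs in cycling microglia against 4377.5, 3411 and 3638. No population in these data should lack Cdkn1a, so the share that free RNA would give could not be measured. Cells carrying Xist together with Y-linked UMIs made up 8.89, 0 and 0% of cycling microglia and 2.89, 1.63 and 2.67% of microglia of no state, and the Cdkn1a, Phlda3 and Bax calls held without them. T or NK cell and neutrophil markers were all at 0 in cycling microglia.

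Within cycling microglia, cells with at least 2 Cdkn1a UMIs (20, 8 and 7 cells) had Bax at 319.0, 374.7 and 297.5 CPM. Those with fewer (25, 12 and 14 cells) had 124.2, 146.1 and 252.8 CPM. Bax was higher in the first set in every run. Phlda3 had 9, 3 and 0 UMIs in the first set and 1, 0 and 2 in the second. Ccng1 had 17, 2 and 1 against 3, 0 and 2, whereas Trp53cor1 had 1, 0 and 0 against 5, 3 and 1. Apart from Bax these are counts of a few transcripts and are given as such.

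Of 50 wider-list genes tested in cycling microglia 14 rose and 6 fell, with a median of 0.11 against -0.14 for all genes. Of those that rose, Chek1, E2f7, Gtse1 and Psrc1 were below the low-count filter in every other comparison and could be tested only because they were high in cycling microglia. Cdkn2a, too, met the filter here only through its counts in cycling microglia. The numbers that rose and fell in the whole list, the regulators and the arrest and growth targets are therefore a description. They are not set against the share of all genes. Placing E2f7, which had 0 UMIs in microglia of no state, at its bound left this median at 0.11. Among 17 regulators of p53, 5 rose (Atm, Atr, Cdkn2a, Chek1 and Chek2) and 2 fell. Cdkn2a, whose products p16 and p19Arf restrain the cycle and Mdm2, stood at 76.4, 64.7 and 47.3 CPM against 1.5, 1.0 and 1.0 CPM, a rise of 5.53 ± 0.50 (edgeR adjusted p = 2.2e-26). Chek1, the S and G2 checkpoint kinase, had 10, 1 and 6 UMIs (30.6, 9.2 and 47.3 CPM) against 11, 11 and 8 UMIs (0.37, 0.49 and 0.40 CPM). Among the 9 arrest and growth targets tested 3 rose and 3 fell, and those that rose are genes of the dividing cell itself: the repressor E2f7, the G2 and S phase gene Gtse1 and the spindle gene Psrc1. E2f7 had 18, 1 and 10 UMIs in cycling microglia, at least 1147-fold higher against 3 counts over all microglia of no state. Gtse1 had 11, 2 and 5 UMIs against 3 in each run of microglia of no state, and Psrc1 had 9, 2 and 5 UMIs against 8, 6 and 3.

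Of 11 apoptosis targets tested in cycling microglia 4 rose and none fell: Apaf1, Bbc3, Pidd1 and Siva1. That is 36.4%, where 17.3% of all genes passed the test (8.82% rose and 8.53% fell). In each of the other comparisons 11 apoptosis targets were tested as well. Bbc3, the death-promoting BH3 protein Puma, stood at 67.2, 37.0 and 39.4 CPM against 17.7, 27.8 and 18.9 CPM and rose by 1.27 ± 0.33 (edgeR adjusted p = 0.00108). Siva1 stood at 73.4, 83.2 and 78.9 CPM against 21.6, 27.3 and 20.1 CPM and rose by 1.59 ± 0.29 (adjusted p = 6.9e-07), and Pidd1, the core of a caspase-activating complex, rose by 3.21 ± 0.65 (adjusted p = 1.6e-05). Rps27l stood at 296.5, 277.4 and 370.7 CPM against 144.5, 133.6 and 134.7 CPM and rose by 0.98 ± 0.14 (adjusted p = 1.6e-10). Btg2 fell by 0.80 (adjusted p = 2.7e-08), a call lost with the run left out of the model (0.369). The falls of Rrm2b, Kat5, Sesn1, Ep300 and Ddit4, between 0.51 and 1.72 in size on the log2 scale, were each lost without at least 1 run and with DESeq2's Wald test.

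**Figure D4:**
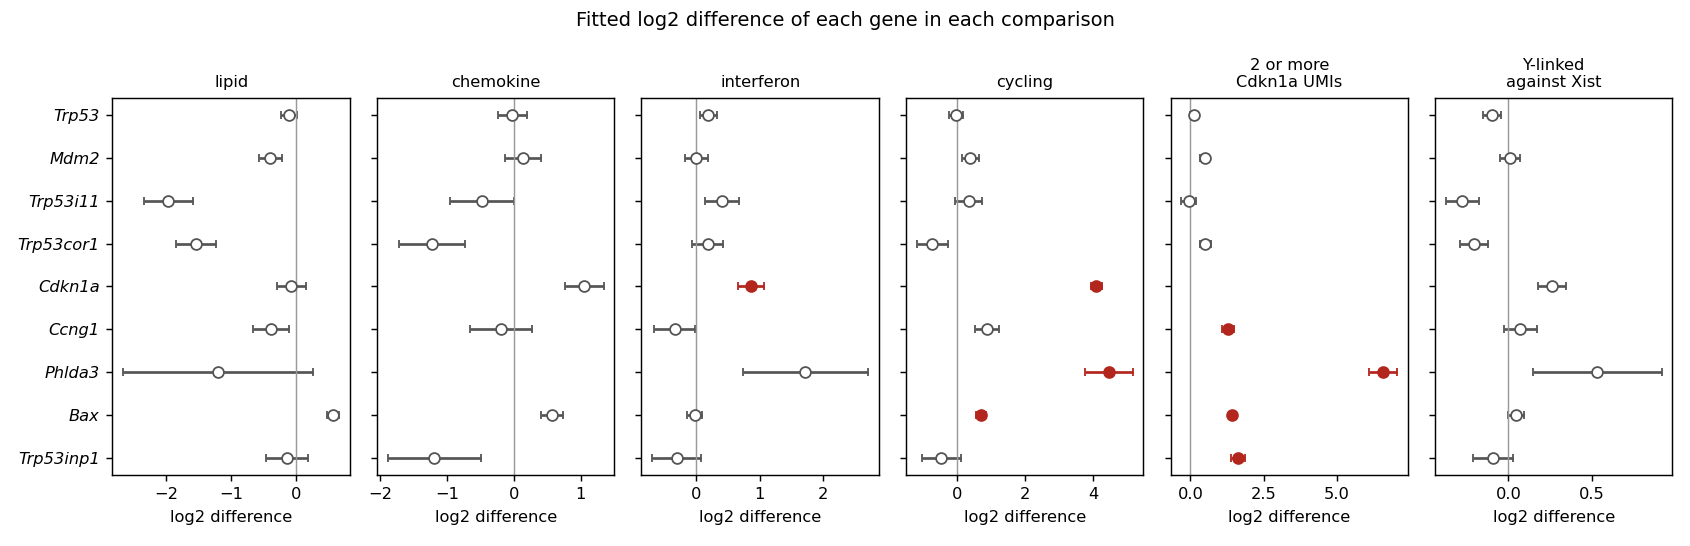
Fitted log2 difference with its standard error (horizontal axes) for each of the 9 genes in each comparison with 3 runs. Filled red points passed the test (adjusted p under 0.05, edgeR); genes in the lipid-marker and chemokine-marker comparisons were not tested and are open. Trp53i11 and Trp53cor1 lie at -1.97 and -1.54 in lipid-marker microglia, where Bax lies at 0.57, and Cdkn1a lies at 4.09 in cycling microglia.

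By mean level over the runs, Trp53i11 was lowest in lipid-marker microglia (4.57 ± 4.02 CPM, SD, n = 3) and in border-associated macrophages (8.19 ± 2.25 CPM), which overlap each other. Above them came cells with markers of several states (10.4 ± 9.41 CPM), MHC class II-positive cells (13.9 ± 7.98 CPM), chemokine-marker microglia (13.9 ± 3.53 CPM), microglia of no state (21.2 ± 2.21 CPM), interferon-marker microglia (28.6 ± 7.32 CPM) and cycling microglia (33.9 ± 32.7 CPM). The ranges of chemokine-marker microglia and microglia of no state did not overlap, and all other neighbours in this order did. Trp53cor1 had the same 2 populations at the bottom, border-associated macrophages (8.19 ± 2.25 CPM) and lipid-marker microglia (9.47 ± 3.03 CPM), with overlap, and interferon-marker microglia (31.3 ± 13.2 CPM) and microglia of no state (27.7 ± 3.58 CPM) at the top, also with overlap. Bax ran from cycling microglia (250.1 ± 23.8 CPM) through the chemokine-marker (198.4 ± 28.7 CPM) and lipid-marker (194.6 ± 21.2 CPM) states to microglia of no state (134.7 ± 10.4 CPM) and border-associated macrophages (127.4 ± 22.7 CPM). Cycling, chemokine-marker and lipid-marker microglia overlapped in this order, the lipid-marker state and microglia of no state did not, and the last 2 populations did. Cdkn1a in cycling microglia (513.6 ± 68.1 CPM) did not overlap the population that came after it, cells with markers of several states (119.8 ± 72.9 CPM), while the neighbours further down overlapped, to 27.1 ± 23.3 CPM in lipid-marker microglia.

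Immediate early-marker microglia, cells with genes such as Fos, Egr1 and Atf3, numbered 437 in run 3 and 2 in each of the other runs, so that the state and the run cannot be told apart and no test was made. In run 3 Trp53i11 stood at 16.8 CPM against 18.8 in microglia of no state, and Trp53cor1 at 29.99 against 28.4 CPM. Cdkn1a stood at 49.5 against 28.2 CPM.

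Since Cdkn1a varied among microglia of no state as well, a comparison was added after the state values had been seen: microglia of no state with at least 2 Cdkn1a UMIs (81, 216 and 97 cells, or 1.27, 3.44 and 1.88%) against those with none (6156, 5790 and 4903 cells). Cdkn1a itself chose these cells and was left out. Bax, Phlda3, Trp53inp1 and Ccng1 were higher in the cells with Cdkn1a, while Trp53i11 and Trp53 did not differ beyond the spread. Bax, Trp53inp1 and Ccng1 passed the test and none of the 8 genes fell, where 0.267% of all genes rose and 0.0712% fell. Phlda3 passed too but is not set against these shares. In cells with no Cdkn1a it was below the low-count filter in every run. It could be tested only because it was high in the cells with Cdkn1a. Median depth was 4689, 3515 and 3584 UMIs against 4373.5, 3396 and 3630, close in each run.

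**Figure D5:**
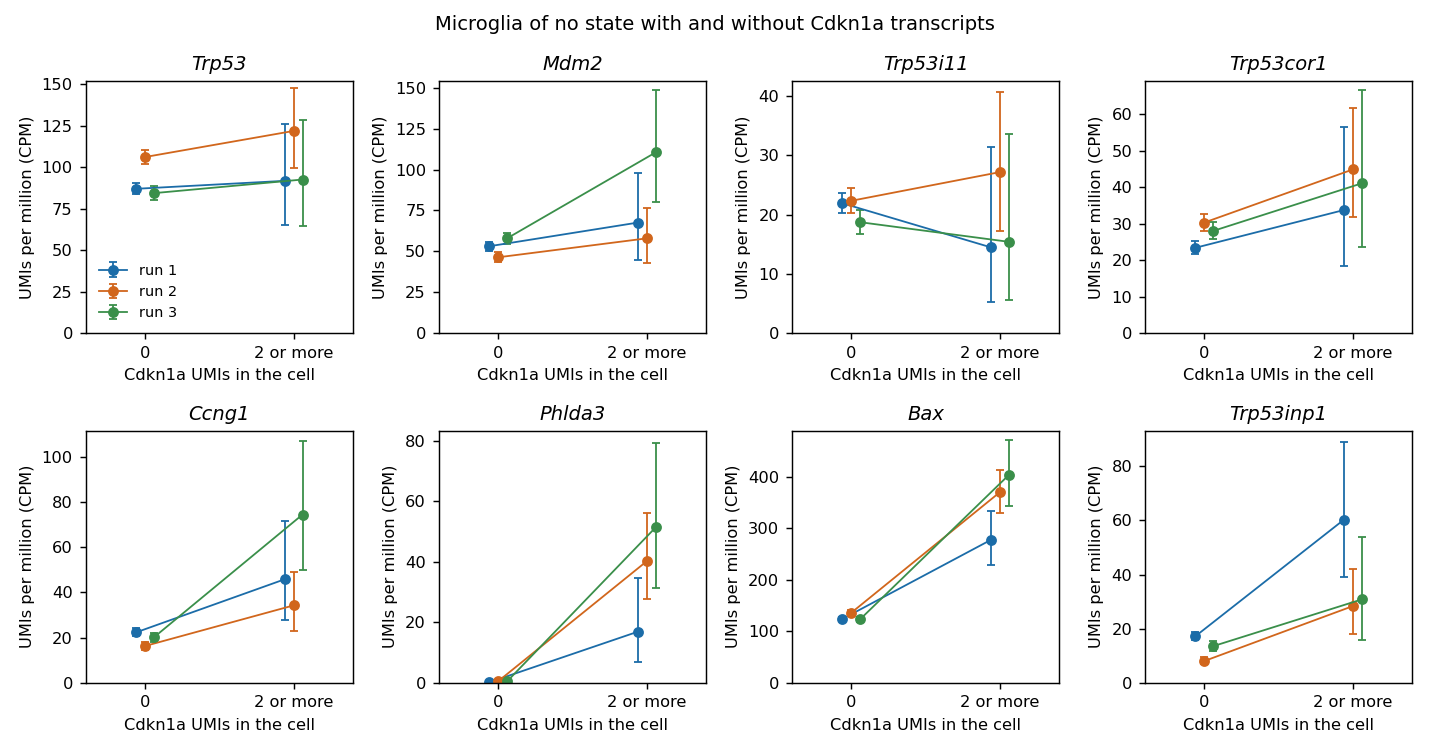
Level (CPM, vertical axes) of 8 genes in microglia of no state with 0 and with 2 or more Cdkn1a UMIs, one line per run, with exact 95% Poisson intervals that cover counting error only. Bax stands at 277.5 to 403.3 CPM in cells with Cdkn1a against 123.2 to 135.8 CPM in cells with none, and the ranges of Trp53i11 overlap.

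Bax stood at 277.5, 370.0 and 403.3 CPM in cells with Cdkn1a against 123.8, 135.8 and 123.2 CPM in cells with none, and rose by 1.41 ± 0.08 (edgeR adjusted p = 3.4e-67). Phlda3 stood at 16.9, 40.2 and 51.4 CPM (7, 34 and 20 UMIs) against 0.14, 0.48 and 0.43 CPM (4, 10 and 8 UMIs) and rose by 6.58 ± 0.48 (adjusted p = 4e-38). All 3 runs were higher for both genes, and cells without Cdkn1a had nearly no Phlda3. Trp53inp1 stood at 60.3, 28.4 and 30.8 CPM against 17.2, 8.0 and 13.5 CPM and rose by 1.62 ± 0.23 (adjusted p = 3.1e-09). Ccng1 stood at 45.8, 34.3 and 74.5 CPM against 22.3, 16.3 and 20.1 CPM and rose by 1.28 ± 0.20 (adjusted p = 9.1e-08). Neither gene's groups overlapped. With the run left out of the model, both lost the call (adjusted p = 0.721 for Trp53inp1 and 0.304 for Ccng1).

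Mdm2, the feedback target, was less clear. It stood at 67.6, 57.9 and 110.5 CPM against 53.1, 46.3 and 57.9 CPM, higher in each run, with a difference of 0.48 ± 0.14 that did not pass the test (edgeR adjusted p = 0.173). With at least 3 Cdkn1a UMIs required it passed (0.72, adjusted p = 0.0269). Trp53cor1, which lies next to Cdkn1a, stood at 33.8, 44.9 and 41.1 CPM against 23.4, 30.3 and 28.0 CPM, a difference of 0.51 ± 0.19 (adjusted p = 0.535). Trp53i11 stood at 14.5, 27.2 and 15.4 CPM against 21.9, 22.3 and 18.7 CPM, higher in run 2 and lower in runs 1 and 3 (-0.06 ± 0.25, adjusted p = 0.996). Trp53 stood at 91.7, 121.7 and 92.5 CPM against 86.9, 106.0 and 84.3 CPM (0.12 ± 0.12, adjusted p = 0.967). In all, Bax, Trp53inp1, Ccng1, Mdm2 and Trp53cor1 were higher without overlap and none of the 8 genes was lower, against 4.44% and 4.49% of all genes. Phlda3 was higher without overlap too, but it entered the test only through the cells with Cdkn1a and is not set against these shares.

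In the wider list 5 of 45 genes rose with Cdkn1a and none fell, or 11.1% against 0.338% of all genes, with a median of 0.08 against -0.02. Bbc3 stood at 45.8, 104.0 and 87.3 CPM against 16.9, 23.7 and 17.0 CPM and rose by 2.01 ± 0.16 (edgeR adjusted p = 3.9e-32). Aen, a nuclease of apoptosis, stood at 53.1, 49.6 and 77.1 CPM against 19.7, 21.0 and 21.1 CPM and rose by 1.43 ± 0.18 (adjusted p = 8.4e-12). Rps27l stood at 267.8, 273.0 and 256.9 CPM against 142.2, 126.4 and 131.2 CPM and rose by 0.98 ± 0.08 (adjusted p = 3.9e-27). These 3 genes were higher in every run without overlap. Ddit4 rose by 0.42 ± 0.10 (adjusted p = 0.0222), a call lost without any 1 of the 3 runs (adjusted p = 0.115 to 0.733). Sesn2, a sestrin, stood at 14.5, 26.0 and 2.6 CPM against 6.4, 7.8 and 4.7 CPM, lower in run 3, and rose by 1.32 ± 0.35 (adjusted p = 0.0483). None of the 15 regulators tested changed.

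The sexes were compared through the cells' own transcripts, cells with Y-linked UMIs against cells with Xist UMIs within each run. None of the 9 genes passed the test, where 0.615% of all genes did (edgeR; 0.312% higher and 0.303% lower). None was higher or lower without overlap either, as were 1.9% and 2.04% of all genes. Cdkn1a differed by 0.26 (adjusted p = 0.200), Trp53i11 by -0.28 (adjusted p = 0.272) and Trp53cor1 by -0.20 (adjusted p = 0.367). With a stricter call of sex Cdkn1a passed (0.43, adjusted p = 0.0457). In the wider list 1 of 46 genes changed: Ddit4, at 279.2, 73.4 and 102.9 CPM in cells with Y-linked UMIs against 218.7, 37.5 and 44.99 CPM, rose by 0.67 ± 0.08 (adjusted p = 1.6e-06). That call was lost with DESeq2's Wald test (adjusted p = 0.426) and with the run left out of the model (1.00).

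Over 5 microglial populations in 3 runs (15 points, log2 values centred by run, 6137 genes considered) the genes with the profile most like Trp53i11 were Hlf (Pearson r = 0.92), Zfp710 (0.91), Pecam1 (0.90), Sema4b (0.89) and Pip4k2b (0.89). For Trp53cor1 they were Foxj2 (0.90), Arhgap31 (0.89), Klf7 (0.88), Rnf216 (0.87) and Slc46a3 (0.87). For Cdkn1a they were Psip1 (0.97), Spc24, Cep192, Rad51ap1 and Hmgb2 (0.94 each). The points share libraries and the same populations. They include lipid-marker microglia, whose low values led to the choice of Trp53i11 and Trp53cor1. The r values are a description and were not tested. Among the 9 genes Trp53i11 had r = 0.75 with Trp53, 0.68 with Ccng1, 0.52 with Mdm2, 0.47 with Cdkn1a, 0.45 with Phlda3, 0.35 with Trp53cor1, 0.31 with Trp53inp1 and -0.12 with Bax. Trp53cor1 had r between 0.00 (Cdkn1a) and 0.35 (Trp53i11) with all of them except Bax (-0.65). Cdkn1a had its highest r with Phlda3 (0.87) and Ccng1 (0.72).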

How the data were processed

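The study gives, for 3 runs of sorted hippocampal myeloid cells, UMI counts per gene and cell as deposited by the authors: whole numbers, not normalized, made with Cell Ranger on mm10 per the submitters' processing notes, which also name Seurat 4.0. The matrices' software versions are 3.0.2, 3.1.0 and 3.1.0 per the file headers. Of 31053 gene IDs, 99.6% were in GENCODE M21. The members and lists were chosen with earlier results of these data known.

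Counts were summed per run and population (Python 3.11.15, scanpy 1.11.5) and tested with edgeR 4.0.16 in R 4.3.3: quasi-likelihood test, TMM scaling, low-count filter, run as block, Benjamini-Hochberg adjustment over all genes tested except the markers that called the state, threshold 0.05. A run entered with at least 20 cells in each population. Both populations of a run come from 1 library, so the run pairs them, and their deviations from the group means correlated at 0.426 to 0.937. A marker counted only if at most 12% of cells had it, a state needed at least 5 marker UMIs per 10000, and a microglial cell at least 8 of the 12 microglia markers. Cells of several states, macrophages, MHC class II-positive cells and cells with astrocyte, choroid plexus or T or NK markers were kept out of the microglia. No doublet caller was run; leaving out cells with Xist and Y-linked UMIs was an alternative. The scripts were checked on simulated data. There the test recovered 32% of 2-fold falls in the cycling comparison and 38% in the chemokine one. It recovered 46% in both the lipid and interferon comparisons, 54% in the Cdkn1a one and 94% in that of the sexes. A gene that did not pass may therefore still differ.

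Named are the 9 members, wider-list genes with an adjusted p under 0.05 and at least 20 CPM in the higher population (at most 6 per direction and comparison, by size of change), and the 5 genes most like Trp53i11, Trp53cor1 and Cdkn1a. Atm, Atr, Chek2, Apaf1 and Sesn2, and Bbc3, Siva1 and Rps27l in cycling microglia, were named in addition after their values were seen. Alternatives were DESeq2's size factors and Wald test (DESeq2 1.42.0), no filter on low counts, stricter cells, 1 more marker, clusters in place of markers, no block and each run left out; 3 on the Cdkn1a comparison were added after seeing the data. Intervals cover counting error only.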

Additional observations from a re-analysis of the deposited data

How the results depend on the processing

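Counts of genes passing the test moved with the settings. With DESeq2's Wald test they were 1419 for lipid-marker microglia (2544 as reported), 180 for chemokine-marker (396), 125 for interferon-marker (206), 1066 for cycling (1939), 14 for the sexes (69) and 18 for the Cdkn1a comparison (38). With no replicate block they were 655, 40, 73, 1064, 0 (83 at an unadjusted p under 0.05) and 8. Clusters in place of markers gave 3747 for chemokine-marker and 374 for interferon-marker microglia, and no filter gave 123 for the sexes. Leaving out 1 run gave 1731 to 1943, 122 to 418, 138 to 153, 962 to 1622, 18 to 113 and 17 to 33. The cause of these shifts was not tested, beyond the smaller number of samples or genes.

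Of the tested differences of named genes, 514 kept direction and call, 73 lost the call, 5 gained it and 26 changed sign, with no call on either side of the change. In interferon-marker microglia Bax (-0.02) was 0.0704 with 1 more marker, 0.0122 with DESeq2 size factors, 0.0221 with the Wald test, 0.0114 in stricter cells and -0.0916 to 0.0922 without 1 run. Ccng1 was 0.0602 in clusters. Mdm2 was -0.0129 with no filter, -0.0182 in stricter cells and -0.206 to 0.188 without 1 run, and Trp53cor1 -0.0146 to 0.421 without 1 run. In cycling microglia Trp53 (-0.05) was 0.0124 with size factors, 0.0422 with the Wald test, 0.0823 in clusters and -0.108 to 0.108 without 1 run. Without 1 run Ccng1 was -0.0993 to 1.07, Mdm2 -0.175 to 0.516 and Trp53i11 -0.434 to 0.806. Ccng1 passed there with size factors (adjusted p = 0.0450) and without run 3 (0.0381), and Trp53cor1 passed in clusters (-1.19, adjusted p = 0.0113). Between the sexes Ccng1 was -0.0069 with a stricter call, and Mdm2 was -0.0034 with no filter, -0.0052 in stricter cells, -0.0315 with a stricter call and -0.0156 to 0.0386 without 1 run. In the Cdkn1a comparison Trp53i11 (-0.06) was 0.178 with at least 1 UMI and -0.497 to 0.0939 without 1 run. Clusters for the lipid state, 1 more marker for the chemokine and cycling states, stricter cells for the cycling state and every setting of the immediate early state were not run, for too few cells. Trp53i11 in lipid-marker microglia rests on 6, 4 and 0 UMIs, and Phlda3 in cycling microglia on 10, 3 and 2.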

Other observations

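Of the 38 genes that passed the test between microglia of no state with at least 2 Cdkn1a UMIs and those with none, 29 were neither among the 9 genes nor on the wider list, 21 higher and 8 lower. The ones named here were chosen after their values were seen. Ak1, an adenylate kinase, stood at 70.0, 99.3 and 84.8 CPM against 31.1, 41.3 and 34.4 CPM and rose by 1.21 ± 0.14 (edgeR adjusted p = 3.3e-14). Exoc4, a subunit of the exocyst, stood at 98.9, 95.7 and 125.9 CPM against 58.7, 43.5 and 55.0 CPM and rose by 1.01 ± 0.13 (adjusted p = 4.2e-12). Fam212b, at 4.8, 26.0 and 36.0 CPM against 0.28, 0.24 and 0.48 CPM, rose by 5.94 ± 0.59 (adjusted p = 1.8e-20). It was below the low-count filter in cells with no Cdkn1a, so it could be tested only through the cells with Cdkn1a. Ifi27l2a, an interferon-inducible gene, stood at 48.3, 70.9 and 71.9 CPM against 21.3, 19.96 and 22.3 CPM and rose by 1.60 ± 0.17 (adjusted p = 1.1e-16). Lpl, the lipoprotein lipase that is also a lipid-state marker, stood at 38.6, 39.0 and 53.9 CPM against 18.0, 22.0 and 18.7 CPM and rose by 1.04 ± 0.20 (adjusted p = 0.000225).

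Among the genes that fell were the chemokines Ccl9, at 161.7, 164.3 and 131.0 CPM against 222.1, 243.8 and 220.3 CPM (fell by 0.62 on the log2 scale, adjusted p = 7e-08), and Ccl6 (fell by 0.46, adjusted p = 0.00122). Ccl9 was lower in every run without overlap, while Ccl6 was higher in run 1. Xist fell by 0.34 (adjusted p = 7e-05): 34.6, 54.2 and 49.5% of the cells with Cdkn1a had Xist UMIs, against 43.8, 56.1 and 47.0% of those with none. The part of the sexes in the other differences was not tested.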
